A study of Mus musculus with 12 samples.

Results

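Aminoacyl-tRNA synthetases are the enzymes that join each amino acid to its tRNA before the ribosome can use it. A cell needs them in the cytosol, where the proteins of the nuclear genes are made, and in mitochondria, where the few proteins of the mitochondrial genome are made, and for most amino acids the enzymes of the compartments come from separate nuclear genes. Activated B cells grow and build protein before they divide, so the synthetases are part of the machinery that this growth draws on. The members here were the protein-coding genes of the count table whose symbol is a letter followed by ars, with or without a closing 1 or 2, together with Eprs, Farsa, Farsb and Tarsl2. This rule found 38 of the 22561 genes in the table, and by their symbols 21 encode cytosolic and 17 mitochondrial enzymes. Gars and Kars were counted as cytosolic, although in mammals each of these genes is known to serve both compartments.

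RNA was measured in follicular (FO) B cells sorted from the spleen of 10-week-old C57BL6 mice, in 12 samples that fall into 4 groups of 3. The groups were unstimulated cells, and cells that received for 12 h the type I interferon IFNα, CpG, a DNA oligonucleotide that is sensed by TLR9, or CpG + IFNα. Whether the unstimulated cells were also kept in culture is not given in the sources used here, so culture and stimulus cannot be told apart in any comparison with them. The comparisons of CpG + IFNα with CpG and with IFNα are between groups that were all stimulated for 12 h. The labels do not say whether the replicates came from separate mice, so the p-values measure only the spread between these samples. The library method (bulk RNA barcoding) tags the 3′ end of each transcript with a molecular identifier (UMI), so that a count stands for a molecule and does not grow with transcript length.

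The samples held between 922450 and 2923865 counts, with the fewest in unstimulated cells and the most with CpG + IFNα, and between 2004 and 15840 of these fell on the 38 members. Levels are given as CPM, which are counts scaled by TMM factors to a common total, and are not amounts per cell. In bulk samples fewer cells of a type and less RNA per cell cannot be told apart. All 5 B cell markers were present in every sample, with a summed level of 5697 to 6543 CPM in unstimulated cells, 6117 to 6880.4 CPM with IFNα, 1270.2 to 1379.9 CPM with CpG and 1135 to 1226 CPM with CpG + IFNα. Each of the 5 fell with CpG. The 2 T cell markers in the table summed to at most 1.82 CPM, with 1 of them at 0 in every sample, and the 3 myeloid markers summed to 3.53 to 19.3 CPM in unstimulated cells and to at most 1.64 CPM elsewhere. The 3 plasma cell markers summed to 43.8 to 142.95 CPM and the 2 erythroid markers to 1.5 to 96.5 CPM, both sums with their highest values in unstimulated cells. Most of the plasma cell sum was Xbp1 (mean 101 CPM in unstimulated cells). The means of Sdc1 and Prdm1 were highest with IFNα, at 27.1 and 4.9 CPM, against 18.9 and 4.24 CPM unstimulated, with overlapping samples. The part of these cells in the results below was not tested.

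The start regions of some members hold motifs by which synthetase genes are known to be regulated. ATF4, a transcription factor that raises amino acid supply under stress, binds the C/EBP-ATF response element (CARE), and Myc, which drives growth, binds the E-box CACGTG. RefSeq promoter windows of 300 bases on GRCm38.p6, from 250 bases before to 50 after the start, were at hand for 28 of the 38 members, 14 of each compartment. The motifs searched on both strands were the E-box, the CARE spellings TGATGCAA, TGATGAAA and TGACGCAA, the interferon response core (GAAA, any 2 bases, GAAA), and the motif of NRF1, a regulator of mitochondrial genes (GCGCA followed by TGCGC). The windows of 5 of 14 cytosolic genes held a CARE spelling (Aars, Gars, Iars, Tars and Yars), as did 0 of 14 mitochondrial genes and 2.37% of all 32851 windows. TGATGCAA stood in 4 of the 5 (all but Gars) and in 0.895% of all windows, TGATGAAA in Aars and Gars and in 1.02%, and TGACGCAA in none of them and in 0.49%. The E-box was found in 4 cytosolic genes (Aars, Farsb, Iars and Tars), in 1 mitochondrial gene (Ears2) and in 7.15% of all windows. The interferon core was found in Qars alone, against 3.44% of all windows, and the NRF1 motif in no member, against 0.971%.

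The windows of the 5 genes with a CARE spelling are given here over the stretch that holds their motifs, because they set these cytosolic genes apart by letters from the mitochondrial windows, none of which held a CARE spelling. Capitals mark the CARE spellings, read on either strand (TTGCATCA is TGATGCAA and TTTCATCA is TGATGAAA on the other strand), and the E-box. All are written 5′ to 3′ on the strand of the gene. The stretches lie at chr8:111033681-111033871 (plus strand) for Aars, chr6:55037956-55037993 (plus strand) for Gars, chr13:49682046-49682159 (plus strand) for Iars, chr15:11399629-11399688 (minus strand) for Tars and chr4:129189891-129189928 (plus strand) for Yars.
Aars: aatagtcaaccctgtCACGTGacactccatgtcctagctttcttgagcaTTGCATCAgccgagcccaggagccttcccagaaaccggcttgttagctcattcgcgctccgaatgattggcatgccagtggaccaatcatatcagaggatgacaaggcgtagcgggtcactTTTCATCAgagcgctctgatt
Gars: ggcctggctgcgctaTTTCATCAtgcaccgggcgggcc
Iars: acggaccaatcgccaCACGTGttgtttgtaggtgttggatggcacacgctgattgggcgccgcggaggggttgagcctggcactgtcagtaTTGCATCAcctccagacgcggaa
Tars: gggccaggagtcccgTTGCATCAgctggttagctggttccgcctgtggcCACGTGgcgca
Yars: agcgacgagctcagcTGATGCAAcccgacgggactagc
Positions of the motifs are counted from the RefSeq start, and a window reaches no farther than 250 bases before it. The GENCODE start of Aars, given with its values, and that of Yars (chr4:129189760) lie before the whole stretch printed for each gene. The CARE spelling began 4 bases past the RefSeq start in Yars, counted from 1 at the start itself, and 8 bases past it in Iars. In Tars it began at position -15 and in Gars at position -30, where negative positions lie before the start. Aars held both spellings, at positions -112 and 10, besides an E-box at position -146. These are matches of letters and not measured binding sites.

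In unstimulated FO B cells the cytosolic enzymes were the more abundant set. Their levels summed to 1729, 1772 and 1839 CPM in the 3 samples, against 371 to 379 CPM for the mitochondrial enzymes. The mean level of a cytosolic gene ranged from 10.8 CPM (Tarsl2, a second threonine enzyme) to 455 CPM (Vars, the valine enzyme), with a median of 63.1 CPM. Mitochondrial genes ranged from 6.09 CPM (Pars2, proline) to 98.5 CPM (Lars2, leucine), with a median of 18.3 CPM. Vars alone made up 25.6% of the cytosolic sum, and Lars2 made up 26.3% of the mitochondrial one. Kars (lysine, 177 ± 35.2 CPM, SD, n = 3) and Eprs (140.4 ± 3.02 CPM), which encodes the joined enzyme for glutamate and proline, followed Vars without overlap with it. The lowest Kars sample (144.4 CPM) lay just above the highest Eprs sample (143.8 CPM). All 38 members passed the filter on low counts and were tested among 9431 genes.

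With CpG nearly the whole cytosolic set was higher. By edgeR's quasi-likelihood test with Benjamini-Hochberg adjustment over all genes (called at an adjusted p under 0.1), 20 of the 21 cytosolic genes were up-regulated and 0 down-regulated, against 36.5% and 38.4% of all genes tested. Of these, 17 rose over 2-fold, against 20.1% of all genes. The median log2 fold change of the cytosolic genes was 1.68, that of all genes was -0.03. No cytosolic gene was lower at an unadjusted p under 0.05 or by DESeq2, which called 19 higher. The mitochondrial genes moved less uniformly, with 8 of 17 up-regulated (6 by DESeq2), 2 of them over 2-fold, 2 down-regulated, 7 not called and a median log2 fold change of 0.53. The summed cytosolic level was 4655, 4781 and 4989 CPM with CpG, and the summed mitochondrial level was 516 to 539.7 CPM, so neither overlapped the unstimulated samples. The ratio of the sums rose from 4.57 to 4.94 in unstimulated cells to 8.98 to 9.24 with CpG.

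**Figure D1:**
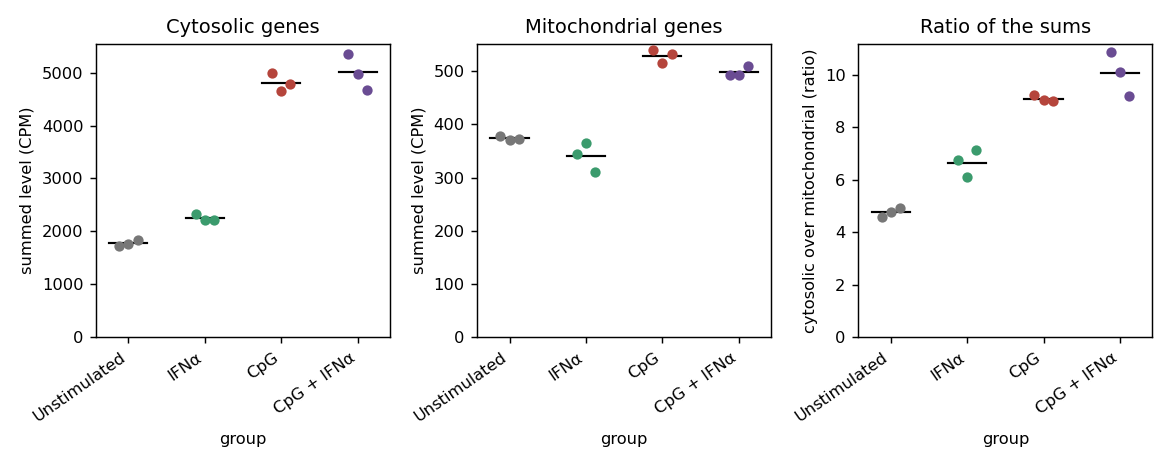
Summed level of the 21 cytosolic and the 17 mitochondrial synthetase genes in TMM-scaled CPM and the ratio of the sums (vertical axes) by group (horizontal axis). Points are the 3 samples of a group and lines their mean. The cytosolic sum lies at 1729 to 1839 CPM in unstimulated cells and at 4655 to 4989 CPM with CpG.

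The most significant rises were those of Gars, Eprs and Rars. Gars, which encodes the glycine enzyme (GRCm38 chr6:55038007-55079500, plus strand), stood at 54.6, 74.9 and 69.7 CPM in unstimulated cells and at 367, 311 and 315 CPM with CpG. It was at 87.8, 76.6 and 97.7 CPM with IFNα and at 373, 324 and 301 CPM with CpG + IFNα. The groups with CpG thus lay apart from both groups without it, with a log2 fold change of 2.32 ± 0.14 (SE) in CpG over unstimulated cells (edgeR adjusted p = 8.49e-16). Eprs (chr1:185363044-185428360, plus strand) was at 144, 138 and 139 CPM unstimulated, at 163, 166 and 177 CPM with IFNα, at 522, 547 and 608 CPM with CpG and at 699, 692 and 537 CPM with CpG + IFNα. Its log2 fold change with CpG was 1.99 ± 0.12 (edgeR adjusted p = 1.43e-15), and it replaced Vars as the most abundant member in the mean of both groups with CpG. Rars (arginine, chr11:35808381-35834506, minus strand) rose from 52.8, 57.8 and 58.2 CPM to 258, 244 and 260.1 CPM, by a log2 fold change of 2.18 ± 0.14. With IFNα it was at 71.6, 52.3 and 68.7 CPM, which overlapped unstimulated cells, and with CpG + IFNα at 268, 257 and 232 CPM. Other large rises, named after their values were seen, were those of Iars (isoleucine, log2 fold change 2.4 ± 0.15), Lars (leucine, 2.2 ± 0.16) and Nars (asparagine, 2.11 ± 0.15).

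**Figure D2:**
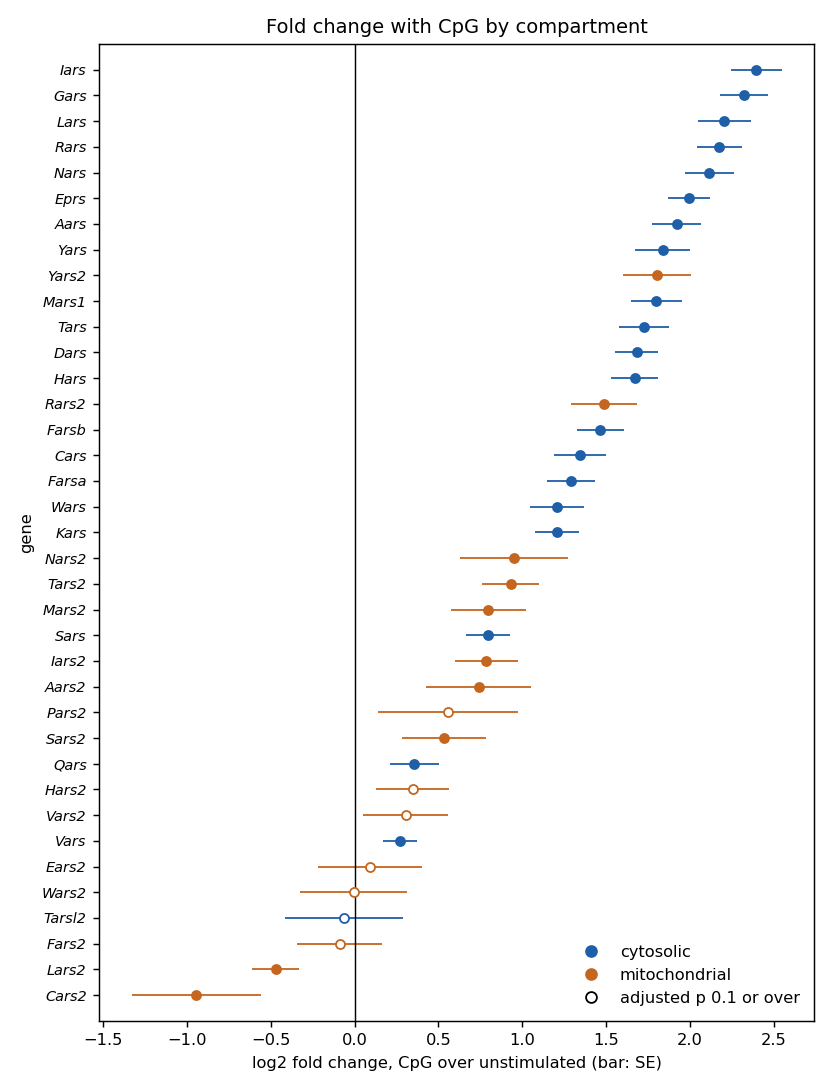
Log2 fold change of each of 37 synthetase genes in CpG over unstimulated cells (horizontal axis, bars are the SE) with the genes ordered by it (vertical axis). Filled points had an edgeR adjusted p under 0.1, and 20 of 21 cytosolic but 10 of the 16 plotted mitochondrial genes are filled.

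Vars, Qars and Sars rose least among the cytosolic genes called. Vars (chr17:35000987-35016322, plus strand), the most abundant member over all groups, was at 470.5, 448 and 447 CPM unstimulated and at 559, 542 and 546 CPM with CpG. These samples did not overlap, but the log2 fold change was 0.27 ± 0.10 (edgeR adjusted p = 0.0194), and the share of Vars in the cytosolic sum went from 25.6% to 11.4%. Vars was at 598, 561 and 528 CPM with IFNα and at 551, 549.6 and 513 CPM with CpG + IFNα, so the 3 stimulated groups overlapped one another. Qars, the glutamine enzyme, had a log2 fold change of 0.36 ± 0.15 (edgeR adjusted p = 0.0308) and was not called by DESeq2 (adjusted p = 0.106). Tarsl2 was the one cytosolic gene not called, at 8.19, 12.8 and 11.5 CPM unstimulated and 9.21, 9.27 and 12 CPM with CpG.

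Several cytosolic enzymes are known to sit in the multisynthetase complex on a scaffold of small proteins, and the others work free of it. With CpG, where 36.5% of all genes tested rose, 8 of 8 complex enzymes rose, with a median log2 fold change of 1.9, and 12 of 13 free enzymes, with a median of 1.46. The 3 scaffold genes rose as well. Eef1e1, a scaffold protein, was at 30.9, 42.8 and 38.8 CPM unstimulated and at 374, 329 and 338 CPM with CpG, a log2 fold change of 3.21 ± 0.15 that exceeded that of every enzyme. Aimp1 went from 74.9 to 106 CPM to 251 to 272 CPM (log2 fold change 1.47 ± 0.13). Aimp2 was low throughout, at 5.46, 0 and 3.53 CPM and at 11.1, 6.42 and 4.99 CPM, and overlapped between the groups (log2 fold change 1.21 ± 0.56, edgeR adjusted p = 0.053). By the fold of the catalytic domain, synthetases form class I and class II. Of the cytosolic genes, 10 of 10 in class I and 10 of 11 in class II were called higher with CpG, against 36.5% of all genes, with median log2 fold changes of 1.82 and 1.67. Eprs was counted in class I alone, although the proline part of this joined enzyme belongs to class II.

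Among the mitochondrial enzymes, Yars2 (tyrosine) and Rars2 (arginine) rose over 2-fold with CpG. Yars2 was at 15.5, 20.3 and 22.1 CPM unstimulated and at 79.8, 59.9 and 62.9 CPM with CpG (log2 fold change 1.81 ± 0.20, edgeR adjusted p = 1.82e-09), and Rars2 went from 16.8 to 25.7 CPM to 51.6 to 61.9 CPM (1.49 ± 0.20). Tars2, Iars2, Mars2, Nars2, Aars2 and Sars2 rose by log2 fold changes between 0.53 and 0.95, and the samples of Sars2 overlapped between the groups. DESeq2 did not call Aars2 (adjusted p = 0.118) or Sars2 (0.154). Lars2 and Cars2 fell. Lars2, the mitochondrial leucine enzyme (chr9:123366927-123462666, plus strand), was at 111, 86.6 and 97.9 CPM unstimulated, at 70.6, 77.2 and 71.7 CPM with IFNα, at 81, 64.2 and 68.4 CPM with CpG and at 56.2, 64.2 and 72.5 CPM with CpG + IFNα. All samples of the 3 stimulated groups lay below the unstimulated ones (CpG: log2 fold change -0.47 ± 0.14, edgeR adjusted p = 0.00399). Mouse Lars2 is known to carry an rRNA-like stretch, so its counts may include fragments of rRNA and are uncertain. The mitochondrial rRNA gene mt-Rnr2 had log2 fold changes of -0.83 ± 0.16 with CpG and 0.01 ± 0.16 with IFNα, and mt-Rnr1 of -0.33 ± 0.25 and 1.54 ± 0.25. The samples of mt-Rnr1 with IFNα were far apart, at 12347, 25938 and 7526 CPM. The part of rRNA in the level of Lars2 was not tested. Without Lars2 the mitochondrial sum was 267.5 to 284.5 CPM in unstimulated cells and 452 to 464 CPM with CpG. Cars2 (cysteine) stood at 16.4, 9.63 and 11.5 CPM unstimulated and at 5.53, 4.99 and 8.49 CPM with CpG, a log2 fold change of -0.94 ± 0.38 (edgeR adjusted p = 0.0293) that lost its call without the first unstimulated sample (adjusted p = 0.185). Cars2 was at 7.06, 17 and 8.39 CPM with IFNα, which lay on both sides of the unstimulated samples, and at 4.91, 6.55 and 5.14 CPM with CpG + IFNα.

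The least abundant and the tryptophan enzymes of mitochondria showed no call with CpG. Pars2 was at 6.37, 7.49 and 4.41 CPM unstimulated and at 10.4, 5.7 and 9.98 CPM with CpG. It was at 9.08, 4.86 and 12.2 CPM with IFNα and at 8.73, 10 and 7.19 CPM with CpG + IFNα, so that all groups overlapped. Wars2 was at 11.8, 10.7 and 11.5 CPM unstimulated, 15.1, 14.6 and 7.63 CPM with IFNα, 11.1, 11.4 and 11.5 CPM with CpG and 14.7, 16.9 and 11.8 CPM with CpG + IFNα. The 95% interval of its log2 fold change with CpG (on the 8 residual degrees of freedom) ran from -0.74 to 0.73, which holds changes as large as those called for Vars, Qars and Sars2.

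The cytosolic and mitochondrial enzymes for one amino acid can be set side by side as the ratio of their levels in each sample. There are 18 such pairs over the 17 mitochondrial genes, because phenylalanine has 2 cytosolic subunits (Farsa and Farsb) and Eprs pairs with both Ears2 and Pars2. With CpG, the ratio lay above that of unstimulated cells without overlap in 15 of 18 pairs and below it in 0. How often the ratios of other gene pairs do so was not computed for any group. Since 36.5% of all genes tested rose with CpG and 38.4% fell, the count alone does not set these pairs apart. The ratio for leucine moved far. Lars was at 0.432 to 0.58 times Lars2 in unstimulated cells, the lowest ratio of all pairs, and at 2.69 to 4.08 times with CpG. Cars over Cars2 went from 2.72 to 5.0 to 13.6 to 23.7, and Eprs over Ears2 from 9.29 to 9.92 to 35.5 to 36.9. The pairs that overlapped were those of serine, valine and tyrosine. Yars was at 1.53 to 1.72 times Yars2 in unstimulated cells and at 1.28 to 1.95 times with CpG, since both genes rose. Vars over Vars2 was at 24.6 to 25.3 and at 18.5 to 33.7, and Sars over Sars2 at 3.74 to 6.12 and at 4.77 to 7.36. With CpG + IFNα, 15 pairs were again above the unstimulated range without overlap, and with IFNα alone 8 were above and 1 below.

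**Figure D3:**
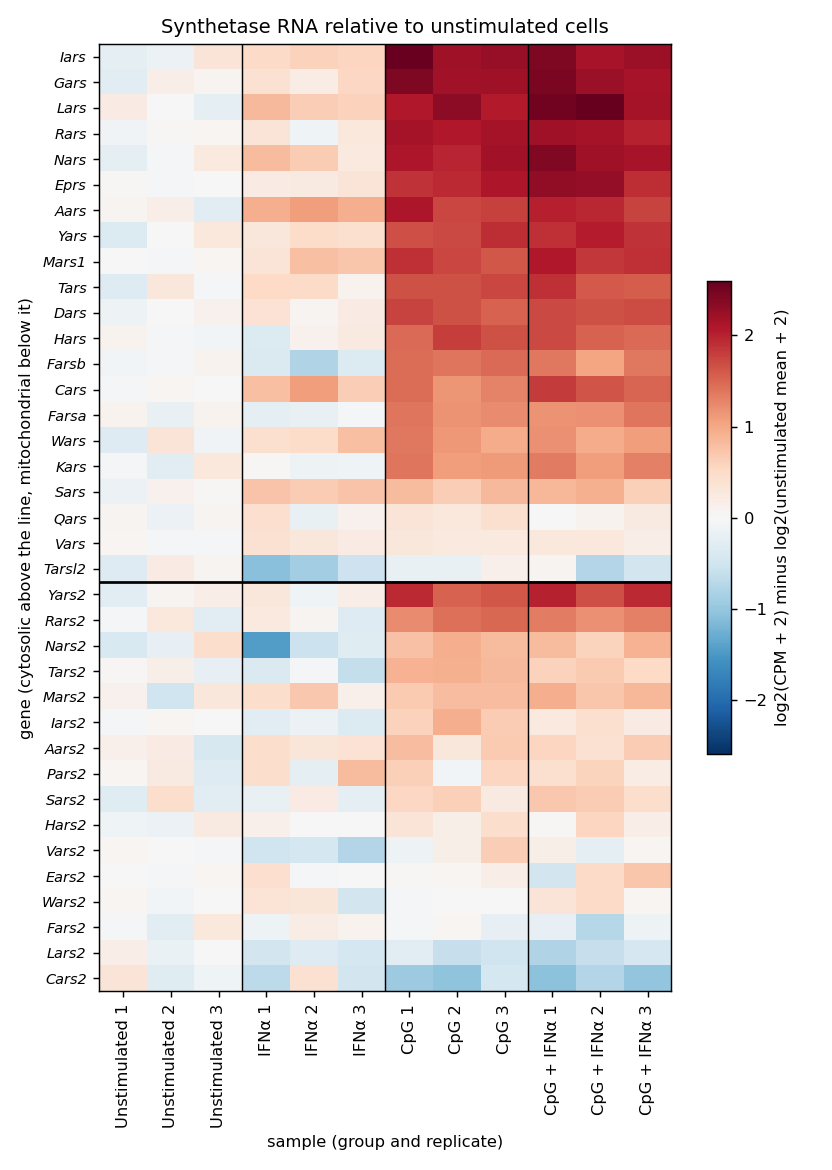
Level of 37 synthetase genes (rows, cytosolic above the line and mitochondrial below it) in each of the 12 samples (columns), as log2(CPM + 2) minus the log2 of the unstimulated mean + 2. The 6 samples with CpG are red for nearly all cytosolic genes, and the IFNα samples are pale red for a part of them.

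With IFNα alone a part of the cytosolic genes changed. Of 21 cytosolic genes, 11 were up-regulated and 2 down-regulated over unstimulated cells, against 12.4% and 11.9% of all genes tested. DESeq2 called 9 and 1. Leaving out the first unstimulated sample lowered the 11 to 7. Among the mitochondrial genes 0 of 17 rose and 1 fell, and neither edgeR at an unadjusted p under 0.05 (0 genes) nor DESeq2 (0 genes) found a rise. Their median level with IFNα was 16.8 CPM, against 82.6 CPM for the cytosolic genes, so rises were harder to detect. Mars2 (log2 fold change 0.48 ± 0.24), Pars2 (0.49 ± 0.44) and Aars2 (0.46 ± 0.34) were not called, although Gars was called at 0.39. Of the 17, 10 had a positive and 7 a negative log2 fold change. The median log2 fold change was 0.39 for the cytosolic, 0.02 for the mitochondrial and 0.00 for all genes. The cytosolic sum was 2219.9, 2223 and 2325 CPM, above the unstimulated samples without overlap, and the mitochondrial sum was 311 to 365 CPM, below them. Without Lars2 the mitochondrial sum with IFNα was 239.6 to 287.6 CPM, which overlapped the 267.5 to 284.5 CPM of unstimulated cells. The ratio of the sums was 6.09 to 7.13.

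Aars, Sars and Cars led the rise with IFNα. Aars, the alanine enzyme (chr8:111033144-111057664, plus strand), was at 62.8, 67.4 and 47.7 CPM unstimulated and at 116, 128 and 116 CPM with IFNα, and it was the only member over 2-fold higher (log2 fold change 1.03 ± 0.16, edgeR adjusted p = 5.35e-06). With CpG it was at 261, 202 and 207 CPM and with CpG + IFNα at 247, 237 and 205 CPM, both above the IFNα samples. Sars, the serine enzyme (chr3:108424865-108445209, minus strand), was at 76.4, 92 and 86.5 CPM unstimulated and at 144, 136 and 143 CPM with IFNα (log2 fold change 0.73 ± 0.13, edgeR adjusted p = 8.53e-05). It was at 153, 133 and 154 CPM with CpG and at 156, 163 and 132 CPM with CpG + IFNα, so the 3 stimulated groups overlapped and the log2 fold change with CpG was 0.79 ± 0.13. Cars, the cysteine enzyme (chr7:143557230-143600090, minus strand), was at 44.6, 48.1 and 45.9 CPM unstimulated, at 80.7, 100.3 and 73.3 CPM with IFNα, at 131, 104 and 116 CPM with CpG and at 169, 148 and 136 CPM with CpG + IFNα. These 4 groups did not overlap in that order, and the log2 fold change with IFNα was 0.89 ± 0.17 (edgeR adjusted p = 0.000105).

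WARS1, the human form of Wars, is known as an interferon-induced gene. Mouse Wars, the tryptophan enzyme (chr12:108860030-108894174, minus strand), was at 41.9, 68.5 and 50.3 CPM unstimulated and at 71.6, 75.4 and 93.9 CPM with IFNα. These samples did not overlap, and the log2 fold change of 0.60 ± 0.17 (edgeR adjusted p = 0.0119) was below those of Aars, Sars and Cars. It was at 142, 119.8 and 107 CPM with CpG and at 125, 106 and 116 CPM with CpG + IFNα. The remaining calls, named after their values were seen, were rises of Lars, Mars1, Nars, Iars, Vars, Gars and Tars by log2 fold changes between 0.30 and 0.71, of which Tars alone overlapped between the groups. The calls of Gars (edgeR adjusted p = 0.0843) and Tars (0.0963) were each lost in 11 of 21 alternatives, DESeq2 and the other scalings among them, and that of Vars in 4 of 21. Without the first unstimulated sample the calls of Wars (adjusted p = 0.1) and Iars (0.134) were lost as well.

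Farsb and Tarsl2 fell with IFNα. Farsb, a subunit of the phenylalanine enzyme (chr1:78417975-78488897, minus strand), was at 60.1, 62 and 67.1 CPM unstimulated and at 48.4, 35.9 and 48.8 CPM with IFNα (log2 fold change -0.53 ± 0.17, edgeR adjusted p = 0.0253). The call of Farsb was lost without replicate 2 of IFNα (adjusted p = 0.172). With CpG it was at 177, 168 and 178 CPM, and with CpG + IFNα at 167, 131 and 167 CPM. Its partner subunit Farsa was at 54.6, 43.9 and 53.8 CPM unstimulated and 42.4, 44.4 and 49.6 CPM with IFNα, which overlapped. Tarsl2 was at 4.04, 4.86 and 6.87 CPM with IFNα and at 11.5, 5.52 and 7.19 CPM with CpG + IFNα. Its log2 fold change with IFNα was -1.01 ± 0.42 (edgeR adjusted p = 0.0918), and its call was lost in 11 of 19 alternatives, among them DESeq2 (adjusted p = 0.182), with an adjusted p of up to 0.232. Lars2, given above, was the mitochondrial gene that fell (log2 fold change -0.43 ± 0.15, edgeR adjusted p = 0.0364). Its call was lost without replicate 1 of unstimulated cells or replicate 3 of IFNα.

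Of the 21 cytosolic genes, 12 are commonly listed as targets of ATF4 (Aars, Cars, Eprs, Gars, Iars, Lars, Mars1, Nars, Sars, Tars, Wars and Yars). This list was chosen with earlier results of these data known, so the split by it is not an independent test. With IFNα 10 of these 12 rose and 0 fell, against 12.4% and 11.9% of all genes tested, with a median log2 fold change of 0.60, and of the other 9 cytosolic genes 1 rose (Vars) and 2 fell, with a median of 0.05. Without the first unstimulated sample the calls of Gars, Iars, Tars and Wars were lost, which left 6 of the 12, and by DESeq2 those of Gars and Tars were lost. The 2 listed genes not called were Eprs and Yars, at 23.7, 31 and 37.9 CPM unstimulated and 38.3, 43.8 and 42 CPM with IFNα for Yars. With CpG 12 of 12 and 8 of 9 rose, against 36.5% of all genes, with medians of 1.88 and 1.29. The gene of ATF4 itself went the other way with IFNα, from 499.6, 425 and 451 CPM to 339, 385 and 345 CPM (log2 fold change -0.36 ± 0.11, edgeR adjusted p = 0.0168), and was at 629, 594 and 586 CPM with CpG and at 841, 861 and 777 CPM with CpG + IFNα. Of 9 genes of the ATF4 route, 2 rose and 1 fell with IFNα, and 7 rose and 2 fell with CpG, where 36.5% of all genes rose and 38.4% fell. Trib3, a stress-induced pseudokinase, was at 0.91, 1.07 and 2.65 CPM unstimulated, 20.2, 12.2 and 8.39 CPM with IFNα and 29.5, 16.4 and 16.5 CPM with CpG. Chac1, which degrades glutathione, was at 0 in the unstimulated samples, at 3.03, 1.82 and 0.763 CPM with IFNα and at 14.1, 6.42 and 14 CPM with CpG. Asns, the asparagine synthetase, was at 1.82, 0 and 1.76 CPM unstimulated, 3.03, 5.47 and 0.763 CPM with IFNα and 50.3, 26.4 and 28 CPM with CpG. The 2 that fell with CpG, named after their values were seen, were Ddit3, which encodes the stress factor CHOP (log2 fold change -1.4 ± 0.27), and Ddit4, an inhibitor of mTORC1 signalling (-1.88 ± 0.24).

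Myc fell with IFNα and rose with CpG. It was at 225, 143 and 168 CPM unstimulated and fell to 48.4, 26.8 and 38.9 CPM with IFNα (log2 fold change -2.28 ± 0.18), whereas it rose to 572, 610.2 and 520.2 CPM with CpG (1.66 ± 0.14). With CpG + IFNα it was at 755, 647 and 725 CPM. Of 5 carrier genes, 1 rose and 2 fell with IFNα, against 12.4% and 11.9% of all genes. With CpG 3 rose and 2 fell, and since 36.5% and 38.4% of all genes did so, these counts do not set the carriers apart. Those that fell with CpG, named after their values were seen, were Slc1a5, a glutamine carrier (log2 fold change -0.47 ± 0.12), and Slc38a2, a carrier of small neutral amino acids (-0.58 ± 0.13), and both also fell with IFNα. Slc7a5, which imports large neutral amino acids, was at 12.7, 8.56 and 20.3 CPM unstimulated, at 32.3, 37.7 and 28.2 CPM with IFNα and at 159.6, 153 and 133 CPM with CpG, and rose in both comparisons. Slc3a2, its partner chain, was at 131 to 145 CPM unstimulated and rose with CpG to 183 to 237 CPM, and Slc7a1, which imports cationic amino acids, went from 62 to 67.1 CPM to 129.8 to 142 CPM.

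Most elongation genes of both compartments rose with CpG, where 36.5% of all genes tested did. Of 7 cytosolic elongation genes 6 rose with CpG and 0 with IFNα (12.4% of all genes). Eif5a, which helps the ribosome past difficult stretches, was at 303, 338 and 369.7 CPM unstimulated and at 1599, 1447 and 1402 CPM with CpG (log2 fold change 2.14 ± 0.13), and Eef1g and Eef1d, subunits of the factor that reloads the tRNA carrier, rose by log2 fold changes of 1.46 ± 0.12 and 1.4 ± 0.14. Of 4 mitochondrial elongation genes 3 rose, and their median log2 fold change of 1.6 was higher than the 0.53 of the mitochondrial synthetases. Tsfm was at 27.3, 16 and 23.8 CPM unstimulated and at 129.5, 96.2 and 98.8 CPM with CpG, and Gfm1 and Tufm rose by log2 fold changes of 1.71 ± 0.18 and 1.48 ± 0.17. Mitochondria make Gln-tRNA by amidation and formylate the initiator Met-tRNA, and 4 of 4 genes of these steps rose with CpG. Gatc was at 18.2, 12.8 and 19.4 CPM unstimulated and at 38.7, 38.5 and 43.9 CPM with CpG, and Gatb and Mtfmt rose by log2 fold changes of 0.90 ± 0.34 and 0.62 ± 0.27. Of the tRNA export and proofreading genes 3 of 3 tested rose, and Xpot, the exporter of tRNA from the nucleus, went from 34.6, 27.8 and 31.8 CPM to 158, 129 and 122 CPM, while Dtd2 and Dtd1 had log2 fold changes of 0.75 ± 0.36 and 0.59 ± 0.18. Of 4 genes of the selenocysteine route 1 rose, Eefsec, from 27.3, 26.7 and 26.5 CPM to 68.8, 45.6 and 46.9 CPM.

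**Figure D4:**
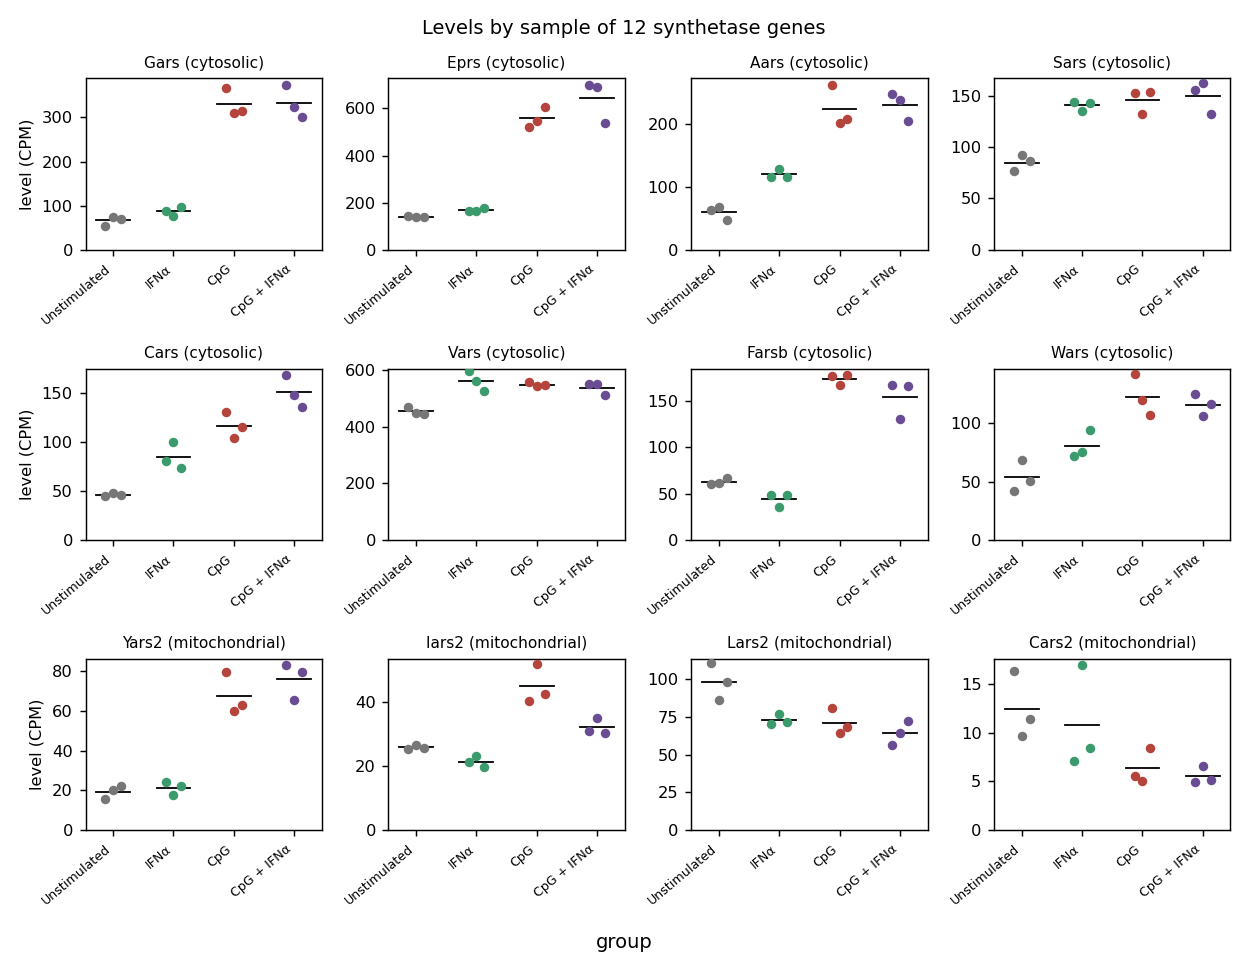
Level in TMM-scaled CPM (vertical axes, each from 0) of 12 synthetase genes by group (horizontal axes). Points are samples and lines the mean of 3. Sars with IFNα lies at the height of the groups with CpG, at 136 to 144 CPM, whereas Eprs with IFNα lies at 163 to 177 CPM, below all samples with CpG.

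Whether IFNα adds to CpG was asked by comparing CpG + IFNα with CpG. In this comparison 1 of 21 cytosolic genes rose and 0 fell, and 0 of 17 mitochondrial genes rose and 1 fell, against 6.54% higher and 8.83% lower of all genes tested. At an unadjusted p under 0.05 edgeR gave 2 higher and 0 lower cytosolic and 0 higher and 1 lower mitochondrial genes, and DESeq2 called 0 in each. The median log2 fold change was 0.01 for the cytosolic, -0.10 for the mitochondrial and -0.04 for all genes. The cytosolic sums of the groups overlapped (4679 to 5358 CPM with CpG + IFNα), and the mitochondrial sum of 492 to 509 CPM lay below the CpG samples. As a share of the raw total, without TMM factors, these mitochondrial sums overlapped. Of the partner lists, 4 of 5 carriers (Slc7a5, Slc3a2, Slc7a1 and Slc1a5, by log2 fold changes of 0.31 to 0.39) and 4 of 9 genes of the ATF4 route (Atf4, Trib3, Sesn2 and Ddit4, by 0.46 to 0.99) rose with CpG + IFNα over CpG. So did 1 of 3 scaffold genes (Eef1e1, by 0.29) and 1 of 4 selenocysteine genes, while 1 of 3 tRNA export and proofreading genes fell. No elongation gene was called, and neither was Myc. The synthetase gene that rose was Cars, from 131, 104 and 116 CPM with CpG to 169, 148 and 136 CPM with CpG + IFNα (log2 fold change 0.37 ± 0.12, edgeR adjusted p = 0.0462). The synthetase gene that fell was Iars2, the mitochondrial isoleucine enzyme (chr1:185284726-185329396, minus strand), from 40.5, 52 and 42.4 CPM to 31.1, 35.2 and 30.3 CPM (log2 fold change -0.46 ± 0.16, edgeR adjusted p = 0.054). Iars2 was at 25.5, 26.7 and 25.6 CPM unstimulated and 21.2, 23.1 and 19.8 CPM with IFNα. The call of Cars was lost by DESeq2 (adjusted p = 0.11) and without replicate 2 or 3 of CpG or replicate 1 of CpG + IFNα (0.142 to 0.219). That of Iars2 was lost by DESeq2 (adjusted p = 0.263) and without replicate 3 of unstimulated cells, replicate 2 of CpG, or replicate 1 or 3 of CpG + IFNα (0.101 to 0.244).

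Lars lay at the threshold, with 218, 262 and 218 CPM with CpG and 297, 331 and 231 CPM with CpG + IFNα, which overlapped (log2 fold change 0.31 ± 0.12, edgeR adjusted p = 0.101). For the 6 genes with the highest fold change in CpG over unstimulated cells, the 95% interval of the log2 fold change on adding IFNα (8 residual degrees of freedom, not adjusted for the number of genes) was -0.37 to 0.17 for Iars, -0.26 to 0.27 for Gars, 0.03 to 0.59 for Lars, -0.26 to 0.24 for Rars, -0.11 to 0.44 for Nars and -0.05 to 0.45 for Eprs. The interval of Lars alone left out 0, and none of the 6 reached 2-fold in either direction.

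CpG + IFNα against unstimulated cells gave 19 of 21 cytosolic genes higher and 0 lower, and 7 of 17 mitochondrial genes higher and 2 lower, against 37.6% higher and 38.8% lower of all genes. No cytosolic gene was lower by DESeq2 or at an unadjusted p under 0.05. The 2 cytosolic genes not called were Tarsl2 and Qars, the latter at 80.1, 68.5 and 79.4 CPM unstimulated and 76.4, 81.4 and 89.9 CPM with CpG + IFNα. Since this comparison shares its unstimulated samples with that of CpG, the calls are not independent of it. Against IFNα, CpG + IFNα raised 17 cytosolic genes, 14 of them over 2-fold, and lowered 0, whereas 36.1% of all genes rose, 18.7% over 2-fold, and 39.8% fell. DESeq2 also called 17 and 0, and 0 were lower at an unadjusted p under 0.05. This comparison is free of the question of culture. The median log2 fold change was 1.44 for the cytosolic, 0.35 for the mitochondrial and -0.07 for all genes. Eprs (1.93 ± 0.12) and Rars (2.0 ± 0.13) had the smallest p-values. The cytosolic genes not called were Vars, Sars, Qars and Tarsl2, of which Vars and Sars were called higher with IFNα over unstimulated cells. Of the mitochondrial genes 8 rose and 2 fell. These were Cars2 (log2 fold change -1.01 ± 0.37, edgeR adjusted p = 0.0146) and Fars2, the phenylalanine enzyme (chr13:36117412-36726280, plus strand). Fars2 was at 18.2, 23.1 and 21.4 CPM with IFNα and at 16.9, 11 and 18 CPM with CpG + IFNα (log2 fold change -0.51 ± 0.24, edgeR adjusted p = 0.0605), and at 19.1, 16 and 24.7 CPM unstimulated and 19.6, 20.7 and 17 CPM with CpG. The call of Fars2 was lost by DESeq2 (adjusted p = 0.153) and without replicate 2 or 3 of IFNα or replicate 2 of CpG + IFNα (0.129 to 0.375), and that of Cars2 without the second IFNα sample (0.371).

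The difference between the effects of IFNα with and without CpG was tested as an interaction. It was negative for 4 of 21 cytosolic genes and positive for 0, against 7.58% negative and 5.84% positive of all genes, and no mitochondrial gene was called in either direction. Among the carriers it was positive for 3 of 5 and negative for 1 (Slc7a5), and in the ATF4 route positive for 2 of 9 and negative for 2. It was also positive for Myc (2.6) and for 1 of 4 genes of the selenocysteine route. At an unadjusted p under 0.05 there were 8 negative and 0 positive cytosolic and 0 mitochondrial genes, and DESeq2 called 2 negative cytosolic genes and 0 others. The 4 genes were Aars (difference in log2 fold change -0.99 ± 0.20, edgeR adjusted p = 0.000853), Sars (-0.70 ± 0.18, 0.00889), Wars (-0.69 ± 0.22, 0.042) and Iars (-0.66 ± 0.21, 0.0464). In each of them the level was higher with IFNα than in unstimulated cells, while CpG + IFNα overlapped CpG. The interaction takes in the unstimulated samples, so culture and stimulus cannot be told apart in it either. Iars was at 38.2, 40.6 and 58.2 CPM unstimulated, 65.6, 69.9 and 67.9 CPM with IFNα, 281, 218 and 228 CPM with CpG and 253, 208 and 221 CPM with CpG + IFNα. All 4 belong to the genes commonly listed as targets of ATF4, of which 4 of 12 were called, against 0 of the other 9 cytosolic genes. That list was chosen with earlier results of these data known, so these counts are not an independent test of it. The calls of Wars and Iars were lost by DESeq2 (adjusted p = 0.131 and 0.122) and without the first unstimulated or the first CpG sample, which left 2 genes. With the replicate block Cars was called too (-0.53, adjusted p = 0.0811, against 0.112 without it), which made 5 genes. Over all samples left out in turn, the adjusted p reached 0.167 for Wars and 0.16 for Iars.

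**Figure D5:**
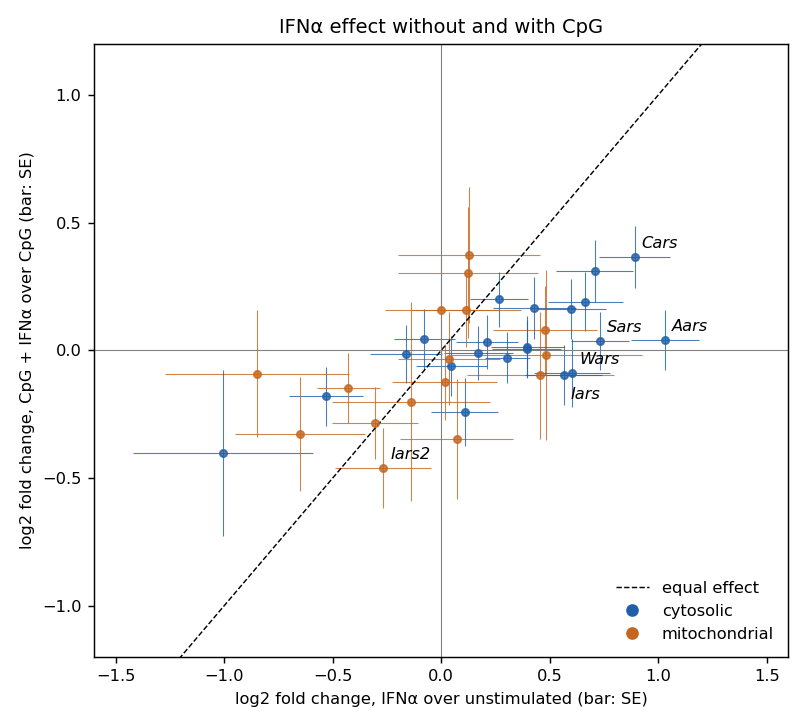
Log2 fold change of IFNα over unstimulated cells (horizontal axis) against that of CpG + IFNα over CpG (vertical axis) for 37 synthetase genes, with bars for the SE. These comparisons share no samples, and the dashed line marks equal effects. Aars lies at 1.03 on the horizontal and 0.04 on the vertical axis.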

How the data were processed

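Sorted FO B cells of the spleen were profiled by bulk RNA barcoding, with an oligo(dT) primer that carries a barcode and a UMI. The table deposited by the authors holds raw counts of UMIs for each gene. By the submitters' processing notes and the methods of the study they used UMI-tools 1.1.2, Trim Galore 0.6.7, HISAT2 2.2.1 and featureCounts 2.0.1 on GRCm38. The strand setting of the counting is not given in the sources used here, so it is not known how reads from a stretch shared by genes on opposite strands were assigned. Hars and Hars2 share such a stretch at their starts (chr18:36783008-36783205), away from the 3′ ends that the library tags. UMIs remove PCR duplicates and counting error was not treated apart from the spread between samples. Here edgeR 4.0.16 (R 4.3.3) filtered genes with filterByExpr by group, computed TMM factors, and tested 9431 genes in 1 fit of the 4 groups (glmQLFit and glmQLFTest, 8 residual degrees of freedom). The SE of a log2 fold change is its size over the root of the F statistic. DESeq2 1.42.0, other scalings, filters and thresholds, the replicate block and each sample left out were alternatives.

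The replicate numbers were not used to pair the samples. Of 18 pairs with the same number 5 had a correlation of deviations over 0.1 (median 0.04, range -0.07 to 0.20), against 0 of 36 pairs with other numbers (median -0.02, at most 0.06). The deposited barcode list gives each wild-type number 1 sample of every group and does not say whether a number stands for a mouse, so a shared source is possible. No replicate was a copy of another: within groups, pairs had a chi-square of 1.9 to 6.31 for each degree of freedom. One mitochondrial member entered the fit, the sums and the counts, and is not reported here by name or plotted as a gene. Members and lists were chosen with earlier results of these data known. Sample values are given for the 3 members in each direction with the smallest p in CpG against unstimulated cells and the 2 in each other comparison, among those called, for the most and least abundant member of each compartment, and for Wars, Wars2 and Lars2. Up to 3 partner genes a list are named by fold change, with ranges or fold changes for the rest. Other members were named after their values were seen. Gene positions are from GENCODE M21, and 38 of 38 members matched by identifier. Promoters are from RefSeq on GRCm38.p6. The test was checked on simulated counts.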

Additional observations from a re-analysis of the deposited data

Results flagged for a closer look

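In 4 cytosolic genes the measured effect of IFNα differed by whether CpG was present, by a test of the difference itself (the interaction in edgeR, adjusted over all genes). Without CpG this effect is measured against unstimulated cells, so culture and stimulus cannot be told apart in it. The effect of IFNα with CpG minus that without CpG was -0.99 on the log2 scale for Aars, -0.70 for Sars, -0.69 for Wars and -0.66 for Iars. For Aars and Sars the call held in every alternative run.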

How the results depend on the processing

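Of 2196 alternative values for the 105 values of the 38 members that passed the test, 2104 kept direction and call, 92 lost the call and 0 changed sign. Of 2532 alternative values for those that did not pass, 164 changed sign and 37 gained the call. The cause was not tested for any of the following. With IFNα the number of cytosolic genes lower went from 2 to 1 without a filter, with the stricter filter (20 counts in 3 samples), by DESeq2, in a fit of only the groups compared and at an adjusted p under 0.05, and mitochondrial genes lower from 1 to 2 with library sizes alone. With CpG mitochondrial genes lower went from 2 to 1 with the stricter filter. In CpG + IFNα over CpG the number of cytosolic genes higher went from 1 to 2 with RLE factors, without a filter, with the stricter filter, in a fit of only the groups compared, with the replicate block and without mitochondrial-genome and rRNA genes, and to 0 by DESeq2. Lars was the second gene in the fits where its adjusted p fell to between 0.0416 and 0.082. Mitochondrial genes lower went from 1 to 0 without a filter, by DESeq2 and at an adjusted p under 0.05. In CpG + IFNα over IFNα mitochondrial genes lower went from 2 to 1 without a filter, with the stricter filter, by DESeq2 and at an adjusted p under 0.05. The interaction was negative for 2 cytosolic genes by DESeq2. With 1 sample left out, the counts ranged as follows. With IFNα there were 7 to 11 cytosolic genes higher, 0 to 2 lower, 0 to 1 mitochondrial genes higher and 0 to 1 lower. With CpG there were 1 to 2 mitochondrial genes lower, and with CpG + IFNα over unstimulated cells 0 to 1 cytosolic genes lower. CpG + IFNα over CpG gave 0 to 3 cytosolic genes higher and 0 to 1 mitochondrial genes lower, CpG + IFNα over IFNα 0 to 2 mitochondrial genes lower, and the interaction 2 to 5 cytosolic genes negative. The summed cytosolic level with IFNα was 1.2 times the unstimulated one as a share of the raw total, against 1.27. Without Vars the cytosolic sum was 3.21 times the unstimulated one with CpG and 3.37 times with CpG + IFNα, against 2.70 and 2.81. Without Lars2, the most abundant mitochondrial member, the mitochondrial sum was 1.66 and 1.58 times, against 1.42 and 1.33.

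Whether the replicate numbers pair the samples was not settled. With the replicate block, calls over all genes went from 2295 to 2450 with IFNα, from 7062 to 7121 with CpG and from 1450 to 1629 in CpG + IFNα over CpG, and the block changed no other count of members by over 1.5 times. Members under 10 CPM, such as Pars2 and Tarsl2, rest on few counts, and small differences were not detectable for them at this depth.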
